A study of Mus musculus with 54 samples.

Results

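The nuclear-encoded subunits of the respiratory chain and ATP synthase were followed as one module of 91 genes among 33280 gene symbols counted in macrophages sorted from mouse brains. Members were chosen by symbol: all rows beginning with Nduf, Uqcr, Cox4, Cox5, Cox6, Cox7, Cox8 or Atp5, and Sdha, Sdhb, Sdhc and Sdhd, at 5 CPM (counts scaled to a common library total) or more in at least 3 libraries. Of 103 matching rows, 4 with a -ps suffix and 8 under that level were left out. Just inside the limit were Ndufb4c, at 5 CPM or more in 3 libraries, and Cox7a1, in 5 libraries; just outside were Cox8b and Ndufb4b, each in 1 library. The members comprised 37 genes of complex I, 1 paralogue of a complex I subunit (Ndufb4c), 8 assembly factors of complex I caught by the prefix, 4 genes of complex II, 8 of complex III, 15 of complex IV, 17 of ATP synthase (complex V) and its inhibitor Atp5if1. The subunits encoded by mitochondrial DNA were not analysed here.

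In total, 54 bulk RNA-seq libraries from 24 mice formed 18 groups of 3. From the same brains came microglia (MG) and sdCAMs (subdural CNS-associated macrophages, from the leptomeninges and perivascular spaces, since the choroid plexuses had been removed). Wild-type (WT) and Ccr2-/- mice were untreated and given PBS (untreated+PBS), or received vehicle (CTL+LPS) or BLZ945 (BLZ945+LPS) and, 8 weeks after the end of treatment, lipopolysaccharide (LPS), a bacterial endotoxin. BLZ945 inhibits the CSF1 receptor, on which brain macrophages depend, so the cells sorted from these mice had repopulated the brain. All reporter mice (Ccr2CreERT2/CreERT2:R26tdT/tdT, called Ccr2Cre here) received BLZ945 and 2 mg tamoxifen at 3 times, then PBS or LPS (BLZ945+PBS, BLZ945+LPS), and gave MG and tdTomato-positive (tdT+) and tdTomato-negative (tdT-) sdCAMs. The tdT+ cells descend from cells that used the Ccr2 promoter when tamoxifen was given, and since CreERT2 was present on both alleles, the reporter groups shared this genotype in addition to BLZ945. Cells were taken 12 h after the injection. The LPS effect in WT and Ccr2-/- mice thus compares LPS plus vehicle with neither, whereas in reporter mice both arms had received BLZ945.

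Library totals ranged from 1705930 to 11330781 counts, with the shallowest among WT sdCAMs. Ccr2, the targeted gene, lay at 16.83 to 42.96 CPM in untreated WT sdCAMs and at 2.46 to 5.59 CPM in those labelled Ccr2-/-. In MG (3.87 to 10.56 against 5.1 to 7.1 CPM) the genotypes overlapped, and after CTL+LPS the sdCAM order was the opposite (0 to 0.26 against 2.92 to 5.32 CPM), so these libraries carry their genotype by label. The summed level of 5 MG markers (P2ry12, Tmem119, Sall1, Siglech, Sparc) was 4610 to 28600 CPM in MG and 171 to 8010 CPM in sdCAMs. The sum of 6 sdCAM markers (Mrc1, Pf4, Lyve1, Cd163, Ms4a7, Clec12a) was 0.256 to 26.5 CPM in MG and 687 to 14600 CPM in sdCAMs. In all 12 libraries of Ccr2-/- mice given LPS, the title names the other cell type than the remaining labels, which were followed. As so assigned, the 6 MG libraries held 3.52 to 7.59 CPM and the 6 sdCAM libraries 2880 to 4570 CPM of sdCAM markers. MG markers exceeded sdCAM markers in 2 sdCAM libraries, tdT+ mouse 5 after LPS (5150 against 687 CPM) and untreated WT mouse 15 (8010 against 7850 CPM), which is the unmarked library among untreated WT sdCAMs. Libraries of 1 group came from different mice.

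The respiratory chain passes electrons from NADH (complex I) and succinate (complex II) through ubiquinone to complex III, then by cytochrome c to complex IV, which reduces oxygen. The protons pumped on the way drive ATP synthase. Most subunits are encoded in the nucleus, many by short genes with brief coding sequences, and are imported into the mitochondrion. In macrophages, endotoxin is known to shift energy metabolism towards glycolysis and to change how the chain is used.

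The shortness of these coding sequences recurs below. Median coding length was 435 bases for the 85 of 91 members (93.4%) found in the reference annotation and 1296 bases over all symbols matched (57.1%). As examples of the short class, the coding sequences of Atp5me (a subunit of the membrane part of ATP synthase; chr5:108433312-108434361, minus strand, 4 coding exons, 216 bases) and Cox8a (a small subunit of complex IV; chr19:7215389-7217512, minus strand, 2 coding exons, 210 bases) are shown from GENCODE on GRCm38, 5′ to 3′, with the start and stop codons in capitals.
Atp5me: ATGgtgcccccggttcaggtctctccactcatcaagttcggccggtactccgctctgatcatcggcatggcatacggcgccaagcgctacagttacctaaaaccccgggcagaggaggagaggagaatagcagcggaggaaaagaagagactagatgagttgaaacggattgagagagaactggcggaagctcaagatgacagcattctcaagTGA
Cox8a: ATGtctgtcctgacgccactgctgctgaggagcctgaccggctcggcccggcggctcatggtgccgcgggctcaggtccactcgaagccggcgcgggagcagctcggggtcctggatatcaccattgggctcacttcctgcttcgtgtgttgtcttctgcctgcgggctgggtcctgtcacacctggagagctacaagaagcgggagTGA
Each is only a few times as long as the 50-base reads used here. For several members the reads can also be shared with other loci. Of all 50-base windows of the transcript, 87.4% in Atp5mc2 and 84.8% in Atp5mg occurred elsewhere in the annotated transcripts. The share was 53.8% in Ndufa12, 50.3% in Atp5po, between these in Cox7c, and 47.9% in Atp5pd. Lower shares included 43.4% in Uqcrb, 39.7% in Ndufs3, 34.1% in Ndufb6 and 32.0% in Cox5a. Levels of these genes are thus uncertain, as are the calls of Ndufa12, Cox7c, Atp5mg, Ndufs3 and Cox5a given with the LPS comparisons.

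Nuclear respiratory genes are known to be controlled in part by the factors NRF1, GABP, ERR and YY1. RefSeq promoters (GRCm38.p6, 250 bases before to 50 after the start) were found for 74 members and searched on both strands for fixed letters (overlaps between different motifs were not counted). The NRF1 motif (GCGC, any base, then TGCGC) occurred in 18 members (24.3%), against 4.78% of all 27025 promoters and 10.8% of the 9573 promoters of genes measured here. The ETS motif CCGGAAGT bound by GABP was found in 5 (6.76%, against 4.0% and 8.69%), the ERR motif TCAAGGTCA in 2 (2.7%, against 0.407% and 0.24%) and the YY1 motif AAGATGGCG in 7 (9.46%, against 1.49% and 3.41%). Promoters of Atp5mc3 (a subunit of the rotating ring of ATP synthase, called higher after LPS in MG of both genotypes) and Ndufs6 (an accessory subunit of complex I, among the members that differed most between libraries) are shown with the matches in capitals.
Atp5mc3, chr2:73911277-73911576, minus strand: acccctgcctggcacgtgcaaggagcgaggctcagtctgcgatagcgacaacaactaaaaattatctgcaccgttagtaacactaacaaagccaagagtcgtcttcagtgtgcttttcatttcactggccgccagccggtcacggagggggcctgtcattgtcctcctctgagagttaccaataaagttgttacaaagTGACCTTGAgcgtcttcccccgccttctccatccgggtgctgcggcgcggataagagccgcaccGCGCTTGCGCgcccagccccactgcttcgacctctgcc
Ndufs6, chr13:73328433-73328732, minus strand: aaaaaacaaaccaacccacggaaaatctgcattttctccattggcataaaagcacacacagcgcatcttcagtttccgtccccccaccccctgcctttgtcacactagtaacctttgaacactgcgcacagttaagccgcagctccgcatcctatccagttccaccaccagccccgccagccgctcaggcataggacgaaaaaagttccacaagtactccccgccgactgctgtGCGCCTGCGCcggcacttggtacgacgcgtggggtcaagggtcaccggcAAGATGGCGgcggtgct
The capitals in Atp5mc3 are the ERR motif on the opposite strand, starting at -52, and the NRF1 motif at 12, given as distances in bases from the start of transcription (0). In Ndufs6 they are the NRF1 motif at -16 and the YY1 motif at 33. A match describes letters only.

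The module took 0.363% to 1.276% of all counts in the 24 MG libraries. In 18 sdCAM libraries from Ccr2-/- and reporter mice it took 0.59% to 1.208%. In 2 sets of sdCAM libraries the share was several times larger. In the 6 WT sdCAM libraries whose labels carry the remark IEG_correction (all 3 of CTL+LPS, 2 of untreated+PBS and 1 of BLZ945+LPS, called marked here; the labels do not explain the remark), the share was 2.561% to 4.895%, against 0.445% to 0.897% in the 3 unmarked WT sdCAM libraries. In the 3 tdT- libraries after LPS it was 2.172% to 5.078%, against 0.787% to 1.049% in tdT- libraries after PBS. The module score, the mean over members of log2(scaled CPM + 1), lay at 6.84 to 9.1 in marked, 7.7 to 8.11 in tdT- LPS, 4.72 to 5.71 in unmarked WT sdCAM, 4.33 to 6.36 in MG and 5.04 to 6.49 in the other sdCAM libraries.

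**Figure D1:**
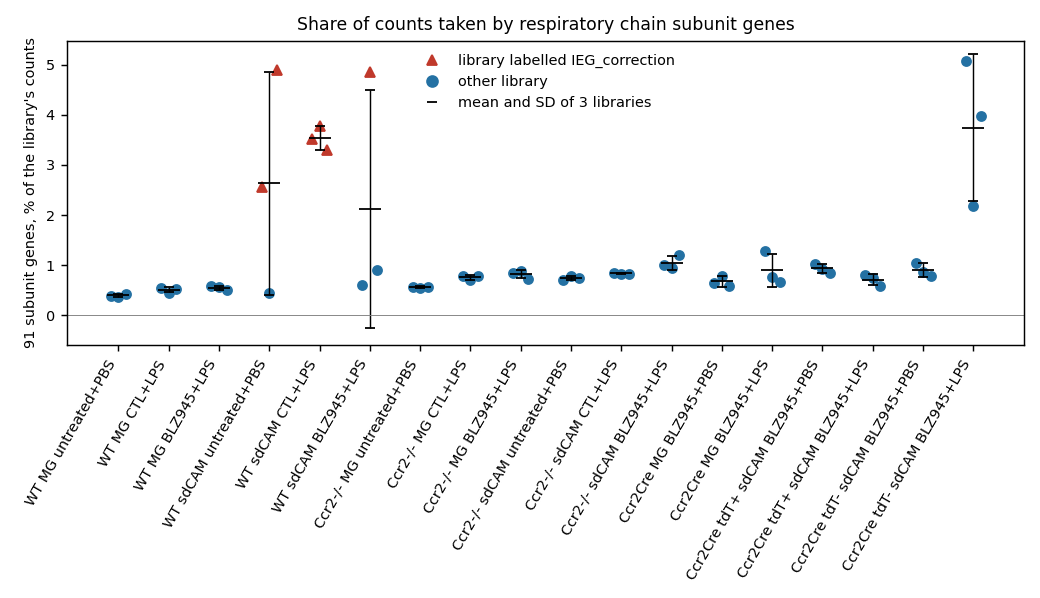
Percent of each library's counts that fell on the 91 members (y axis) in the 18 groups (x axis); points are libraries, triangles mark the label IEG_correction, and bars give mean and SD of 3 libraries. The 6 marked WT sdCAM libraries and the 3 tdT- libraries after LPS lie at 2.172% to 5.078%, and all other libraries at or below 1.276%.

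In these libraries the excess followed coding length. Over the 43 short members (coding length of at most 435 bases) the mean score was 7.81 to 10.41 in marked and 4.63 to 5.8 in unmarked WT sdCAM libraries, whereas over the 14 long members (over 1000 bases) it was 5.98 to 6.28 against 5.3 to 5.74. Cox7a2, a short subunit of complex IV, lay at 334.55 to 1000.94 CPM (median 725.42) in marked and at 26.96, 31.1 and 64.52 CPM in unmarked libraries. Ndufa2 (complex I) lay at 758.22 to 1825.83 CPM against 23.33 to 174.25. Sdha, the long catalytic subunit of complex II, went the other way, with 30.4 to 187.91 CPM (median 48.23) against 180.4 to 361.09 CPM. Of 91 members, 49 were higher in every marked than in every unmarked library (53.8%, against 3.61% of 12053 genes), 3 lower (3.3%, against 20.6%) and 39 overlapped. Among short members 37 of 43 were higher (86.0%). The 49 include Ndufb4c, which reached 5 CPM only in marked libraries. They also include the short Cox7a1, which reached it only in marked and tdT- LPS libraries. Both entered the module only through these groups, so their place in the counts is no support. The pattern was not particular to the module: all short genes together took 13.7% to 67.1% of counts in marked libraries, 42.6% to 49.8% in tdT- LPS libraries, 5.1% to 10.3% in unmarked WT sdCAM, 4.3% to 11.8% in MG and 7.0% to 18.3% in the other sdCAM libraries. Library totals were 2386672 to 7699790 in marked and 1705930 to 2433287 in unmarked WT sdCAM libraries, with a small overlap. They were 3211833 to 8751293 in tdT- LPS and 9182362 to 9850283 in tdT- PBS libraries, without overlap. Monocyte and neutrophil markers summed to 45.7 to 1120 CPM in marked, 0 to 82.6 in unmarked, 268 to 1440 in tdT- LPS and 0 to 59.6 CPM in MG libraries. The part of library depth, RNA quality, library construction or other cells in these values was not tested. Comparisons within MG and those of Ccr2-/- mice do not use these libraries.

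At rest, sdCAMs of Ccr2-/- mice held more of the module than MG, led by complex IV. edgeR called 39 of 90 members higher and none lower in sdCAMs than in MG of untreated Ccr2-/- mice (43.3% and 0.0%, against 12.5% and 9.9% of all 12890 genes; 51 members at an unadjusted p under 0.05), and 75 of 90 had a fold change above 0. The median log2 fold change was 0.51 over the members and 0.0 over all genes. Of complex IV genes 12 of 15 were higher (median 0.88), of complex III 4 of 8 (0.57), of complex I 13 of 37 (0.49), of complex V 6 of 17 (0.43), of complex II 2 of 4 (0.34) and of complex I assembly factors 1 of 8 (-0.19). In complex IV all genes but Cox4i1 (510 coding bases) and Cox5a (441) belong to the short class, whereas every complex II gene lies outside it. The order of the complexes thus cannot be told apart from coding length.

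Cox8a was at 150.5, 175.53 and 147.88 CPM in sdCAMs and at 82.54, 65.11 and 74.65 CPM in MG. All sdCAM libraries exceeded all MG libraries (log2 fold change 1.12, SE 0.179, adjusted p = 0.00011). Cox6a1, the broadly expressed form of another small complex IV subunit, was at 206.27, 225.25 and 221.09 against 120.67, 96.65 and 120.41 CPM (0.97, SE 0.182, adjusted p = 0.000522). Cox7b was at 67.97, 73.61 and 89.87 against 45.28, 37.57 and 40.34 CPM (0.93, SE 0.176, adjusted p = 0.000591). Cox7a2, the general form of a subunit whose muscle form is Cox7a1, differed by a log2 fold change of 1.01 (adjusted p = 0.00178). Ndufa4, which despite its name is a subunit of complex IV, had 0.9 (adjusted p = 0.0014). Ndufa1 of complex I had 0.78 (adjusted p = 0.0202) and Uqcr11 of complex III 0.81 (adjusted p = 0.00872).

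Several long members were not called. Ndufs1, an iron-sulphur subunit of complex I, had a log2 fold change of -0.11 (SE 0.15, adjusted p = 0.659). Uqcrc1, a core protein of complex III, had 0.17 (adjusted p = 0.398), and Atp5f1a, the alpha subunit of ATP synthase, 0.3 (adjusted p = 0.0788). Atp5f1b, its beta subunit, had 0.38 (adjusted p = 0.0583). Sdha, also long, was called at 0.4 (adjusted p = 0.0289), with 397.2, 330.62 and 416.51 CPM in sdCAMs and 268.32, 326.96 and 282.23 in MG; with the mouse as a replicate block it was no longer called. The median was 0.77 over short and 0.07 over long members, and over all genes 0.42 over short and -0.06 over long ones. Across the 85 members with a length, log2 fold change and coding length had a rank correlation of -0.64 (-0.09 over 11911 genes of all kinds; genes are not independent and share the libraries). The share of counts in all short genes was alike in the cell types, at 7.0% to 7.7% in sdCAMs and 7.0% to 7.4% in MG.

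**Figure D2:**
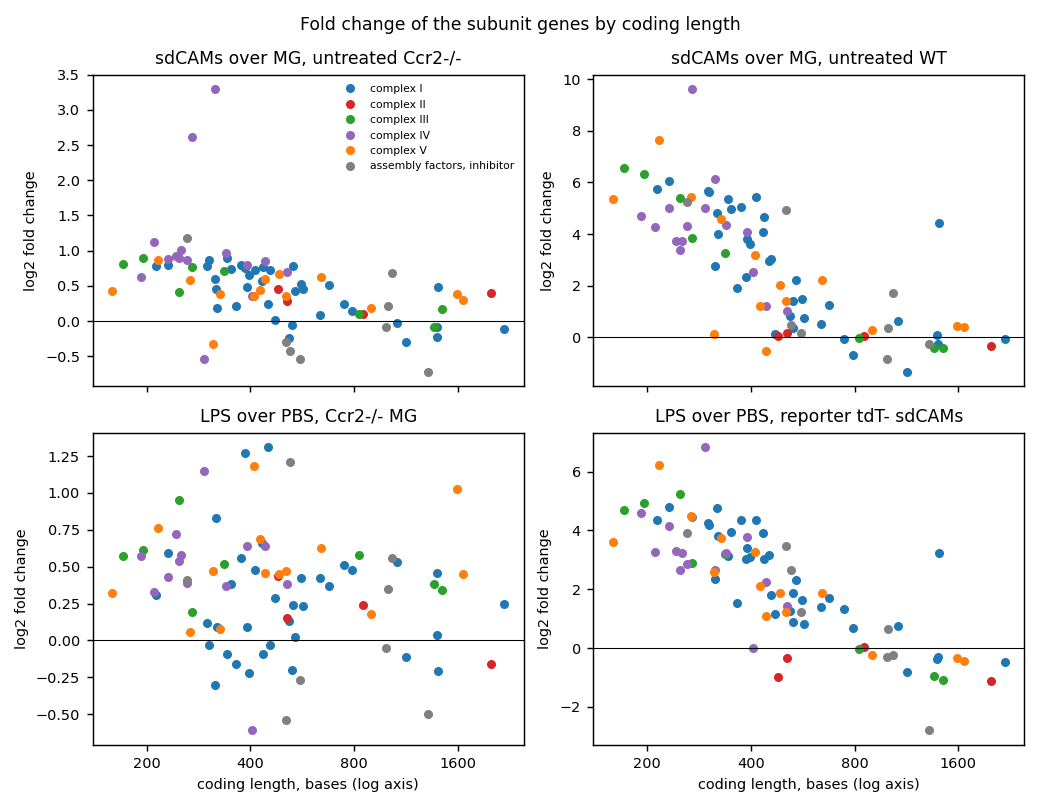
Log2 fold change (y axis) of each member against its coding length in bases (x axis, log scale) in 4 comparisons, coloured by complex. Short members lie highest in sdCAMs over MG of both genotypes and after LPS in tdT- sdCAMs (rank correlations -0.64, -0.81 and -0.84), whereas after LPS in Ccr2-/- MG the points spread over all lengths (-0.22).

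In reporter mice at rest after BLZ945, the sdCAM populations together had a similar median difference from MG, 0.57 (all genes 0.09), but called members were few, 2 higher and 0 lower of 91 (2.2% and 0.0%, against 6.11% and 5.06% of all genes; 19 at an unadjusted p under 0.05, 4 called by DESeq2, against 16.8% of genes). Variation between libraries was larger here, with a common coefficient of 0.789 against 0.392 in the Ccr2-/- fit. The called members were Cox7b (log2 fold change 1.27, adjusted p = 0.0242) and Atp5if1 (1.42, adjusted p = 0.0315). With the mouse as a replicate block, 4 members were called, Ndufa7 and Ndufc1 in addition (8.99% of genes).

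In untreated WT mice, 42 of 91 members were called higher in sdCAMs and 1 lower (46.2% and 1.1%, against 12.0% and 5.46% of all genes), with a median of 2.94; 2 of the 3 sdCAM libraries were marked. Cox8a lay at 1146.27 and 567.34 CPM in the marked libraries and at 102.12 CPM in the unmarked one, against 47.48, 52.47 and 34.25 CPM in MG (log2 fold change 4.29, adjusted p = 0.021). Atp5me lay at 2765.14, 1821.41 and 93.83 against 14.94, 13.24 and 5.45 CPM (7.65, adjusted p = 0.000661). In both genes the unmarked library also exceeded all MG libraries, and the size of the fold came from the marked ones. As given above, this unmarked library held more of the MG markers (8010 CPM) than of the sdCAM markers (7850 CPM). Ndufa9, which is long, was the member called lower, at 23.61, 25.24 and 17.63 against 83.22, 70.55 and 67.28 CPM (-1.34, adjusted p = 0.0109). Of the members called higher, 29 of 42 were also called in Ccr2-/- mice (74.4% of the 39 called there), an overlap not computed over all genes. With unmarked libraries alone, 6 members were called higher and 5 lower, against 17.3% of genes; this fit holds 1 untreated sdCAM library, which is assumed to vary like the other groups. With the mouse as a replicate block 27 were called in all, against 10.5% of genes.

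LPS raised a subset of the module in MG, mostly by less than 1 on the log2 scale (in Ccr2-/- MG 5 of the 30 members called higher exceeded it, in WT MG none). In WT MG, 12 of 89 members were called higher after CTL+LPS than in untreated mice and 1 lower (13.5% and 1.12%, against 16.7% and 14.2% of all 11789 genes). In Ccr2-/- MG, 30 of 88 were called higher and 1 lower (34.1% and 1.14%, against 19.4% and 15.5% of 11558 genes). The share of members called higher was thus below the background in WT and above it in Ccr2-/- MG, and in both few members fell. Median log2 fold changes were 0.27 and 0.39 (all genes 0.02 and 0.0), and 10 members were called higher in both (83.3% of 12, 33.3% of 30), namely Atp5f1b, Atp5mc3, Cox5a, Cox7c, Ndufa12, Ndufa4, Ndufaf4, Ndufb1, Uqcr11 and Uqcrq. The overlap over all genes was not computed, so this overlap is not known to be particular to the module.

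Atp5f1b, the catalytic beta subunit of ATP synthase, stood at 490.62, 319.62 and 435.36 CPM after LPS and at 260.08, 231.64 and 209.17 CPM at rest in WT MG (log2 fold change 0.74, SE 0.183, adjusted p = 0.0096). In Ccr2-/- MG it stood at 634.82, 544.74 and 683.09 against 295.18, 278.82 and 297.16 CPM (1.03, SE 0.146, adjusted p = 0.000102). The groups did not overlap in either genotype. Its coding sequence is long (1590 bases). Medians over short and long members were 0.34 and 0.18 in WT MG and 0.43 and 0.35 in Ccr2-/- MG. The rank correlation of fold change with coding length was -0.31 in WT and -0.22 in Ccr2-/- MG.

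Ndufa12, an accessory subunit of complex I, rose from 23.18, 22.45 and 21.79 to 66.99, 50.63 and 57.13 CPM in Ccr2-/- MG (1.31, adjusted p = 0.000101) and by 0.9 in WT MG (adjusted p = 0.0103). Ndufaf4, an assembly factor of complex I, rose from 26.21, 34.23 and 26.25 to 62.66, 58.38 and 89.59 CPM in Ccr2-/- (1.21, adjusted p = 0.000445) and from 42.28, 38.2 and 45.26 to 124.19, 55.34 and 82.16 CPM in WT MG (0.97, adjusted p = 0.0112). Atp5mc1 and Atp5mc3, which encode the same ring subunit of ATP synthase, rose by 1.18 and 0.69 in Ccr2-/- MG (adjusted p = 0.000154 and 0.00434). Uqcrq of complex III rose by 0.87 in WT and 0.95 in Ccr2-/- MG (adjusted p = 0.0145 and 0.000674).

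Of the 4 genes of complex II, which also belongs to the tricarboxylic acid cycle, none was called in WT MG (median 0.09) and 1 in Ccr2-/- MG (0.2), where Sdhd, a membrane anchor, rose from 135.73, 129.49 and 137.87 to 184.72, 182.69 and 203.06 CPM (0.44, adjusted p = 0.0404). Sdha had -0.19 (adjusted p = 0.312) in WT and -0.16 (adjusted p = 0.395) in Ccr2-/- MG. In Ccr2-/- MG 9 of 37 complex I genes, 5 of 8 of complex III, 6 of 13 of complex IV and 8 of 17 of complex V were called higher. The members that fell were Ndufaf7, a methyltransferase that helps complex I assembly, in WT MG (24.62, 47.61 and 38.5 against 45.88, 57.56 and 59.38 CPM; -0.66, adjusted p = 0.0424), and Cox7a2l, which takes part in supercomplexes of complexes III and IV, in Ccr2-/- MG (21.89, 19.93 and 17.98 against 26.11, 30.42 and 30.46 CPM; -0.61, adjusted p = 0.042). The WT groups of Ndufaf7 overlapped. The summed level of MG markers was 4610 to 7690 CPM after LPS and 21900 to 23400 CPM at rest in WT MG, and 7950 to 9500 against 28300 to 28600 CPM in Ccr2-/- MG; its part in these results was not tested.

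In MG of reporter mice, which had repopulated, no member was called by edgeR in either direction (0 of 89, against 0.662% and 0.423% of 10882 genes; 1 at an unadjusted p under 0.05, and 1, Cox7c, called by DESeq2, against 7.86% of genes). The median was 0.22 (all genes 0.03). Atp5f1b lay at 833.92, 617.21 and 609.37 CPM after LPS and at 405.23, 451.77 and 421.81 after PBS, without overlap (0.43, SE 0.339, adjusted p = 0.689). The common coefficient of variation was 0.81 here, against 0.257 in WT and 0.264 in Ccr2-/- MG, and the library of LPS mouse 1 held a share of 1.276%, against 0.663% and 0.762% in the others.

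**Figure D3:**
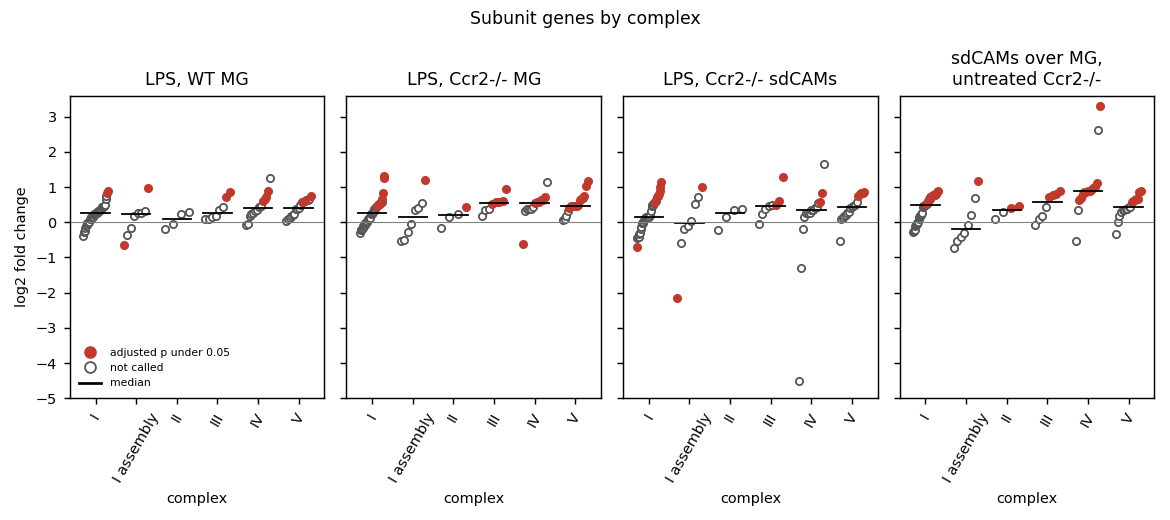
Log2 fold change (y axis) of the members by complex (x axis) for LPS in WT MG, Ccr2-/- MG and Ccr2-/- sdCAMs and for sdCAMs over MG in untreated Ccr2-/- mice; filled points had an adjusted p under 0.05 and lines are medians. Most called members lie above 0 in all 4 panels, and 12 of 15 genes of complex IV were called between the cell types (median 0.88). Nearly all complex IV genes are short, so complex and coding length cannot be told apart.

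In sdCAMs of Ccr2-/- mice, LPS raised 20 of 90 members and lowered 3 (22.2% and 3.33%, against 15.8% and 13.1% of 11941 genes), with a median of 0.31 (all genes -0.05). Of the 20, 14 were also called in Ccr2-/- MG (70.0% of 20, 46.7% of 30), an overlap not computed over all genes. Atp5f1b stood at 562.89, 595.45 and 618.66 against 347.15, 406.81 and 358.75 CPM (0.82, SE 0.132, adjusted p = 0.000485). Uqcrq stood at 136.79, 116.45 and 109.96 against 56.44, 59.7 and 47.06 CPM (1.3, adjusted p = 0.00168), and Ndufv1, the subunit that binds NADH, at 74.67, 85.63 and 102.21 against 49.38, 53.91 and 54.97 CPM (0.88, adjusted p = 0.00446). Ndufaf4 rose by 1.0 (adjusted p = 0.0102). Of the complex IV genes called between the cell types at rest, Cox5b (0.84, adjusted p = 0.00689) and Cox7c (0.59, adjusted p = 0.0441) were called higher after LPS as well. Genes not called after LPS had values such as 0.14 for Cox6a1 (adjusted p = 0.641), 0.34 for Cox8a (adjusted p = 0.199) and 0.34 for Cox7a2 (adjusted p = 0.291).

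The share of counts in all short genes also differed between these groups, 14.4% to 15.3% after LPS against 7.0% to 7.7% at rest. Median log2 fold changes were 0.33 over short and 0.38 over long members, and over all genes 0.18 over short and -0.1 over long ones. The part of this difference in the result was not tested. On library totals in place of TMM, which moved all genes by -0.15 on the log2 scale, 59 rather than 69 of 90 members had a fold change above 0. Monocyte and neutrophil markers summed to 59.3 to 91.6 CPM after LPS and 0.973 to 2.58 CPM at rest, and sdCAM markers to 4180 to 4570 and 14200 to 14600 CPM; their part in the result was not tested, and a change in the cells sorted and a change of RNA per cell cannot be told apart in bulk libraries.

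Among the members that fell, Atp5if1 had the lowest adjusted p; it encodes the small protein that blocks ATP synthase from running backwards and splitting ATP. In Ccr2-/- sdCAMs it was at 107.95, 118.17 and 112.85 CPM at rest and at 23.33, 22.46 and 23.61 CPM after LPS. The groups lay far apart and each was tight (log2 fold change -2.14, SE 0.287, adjusted p = 0.000123). In MG of the same mice it was at 53.84, 42.3 and 58.28 CPM at rest and at 55.87, 49.92 and 51.44 CPM after LPS, with overlap (-0.04). The LPS effect differed between the cell types by -2.07 (SE 0.348, adjusted p = 0.000671; 0.00468 with the mouse as a replicate block). At rest it was higher in sdCAMs than in MG (1.16, adjusted p = 0.00163), as in reporter mice (1.42, adjusted p = 0.0315). After BLZ945+LPS, Ccr2-/- sdCAMs were at 29.83, 28.95 and 61.37 CPM, all above the CTL+LPS libraries (0.8, adjusted p = 0.501). In WT sdCAMs, where most of the libraries compared were marked, LPS changed Atp5if1 by -0.68, which was not called. The WT cell types differed in this effect by -0.94 (edgeR, adjusted p = 0.806). The fall was thus not seen in every sdCAM comparison.

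Only 1 other member had a called difference of the LPS effect between the cell types of Ccr2-/- mice, Ndufb10 of complex I, with 59.2, 52.79 and 69.08 CPM after LPS and 87.23, 126.41 and 112.0 CPM at rest in sdCAMs, and 60.34, 58.71 and 73.45 CPM at rest and 87.81, 70.76 and 78.61 CPM after LPS in MG (-0.9, SE 0.256, adjusted p = 0.0341; not called with the block, adjusted p = 0.0527). In all, 2 of 90 members were called lower and 0 higher in this contrast (2.22% and 0.0%, against 4.64% and 3.5% of all genes). The other lowered members in Ccr2-/- sdCAMs were Ndufb10 (-0.7, adjusted p = 0.0224) and Ndufaf7, at 8.62, 2.42 and 10.46 against 30.57, 45.05 and 30.28 CPM (-2.16, adjusted p = 0.00622).

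**Figure D4:**
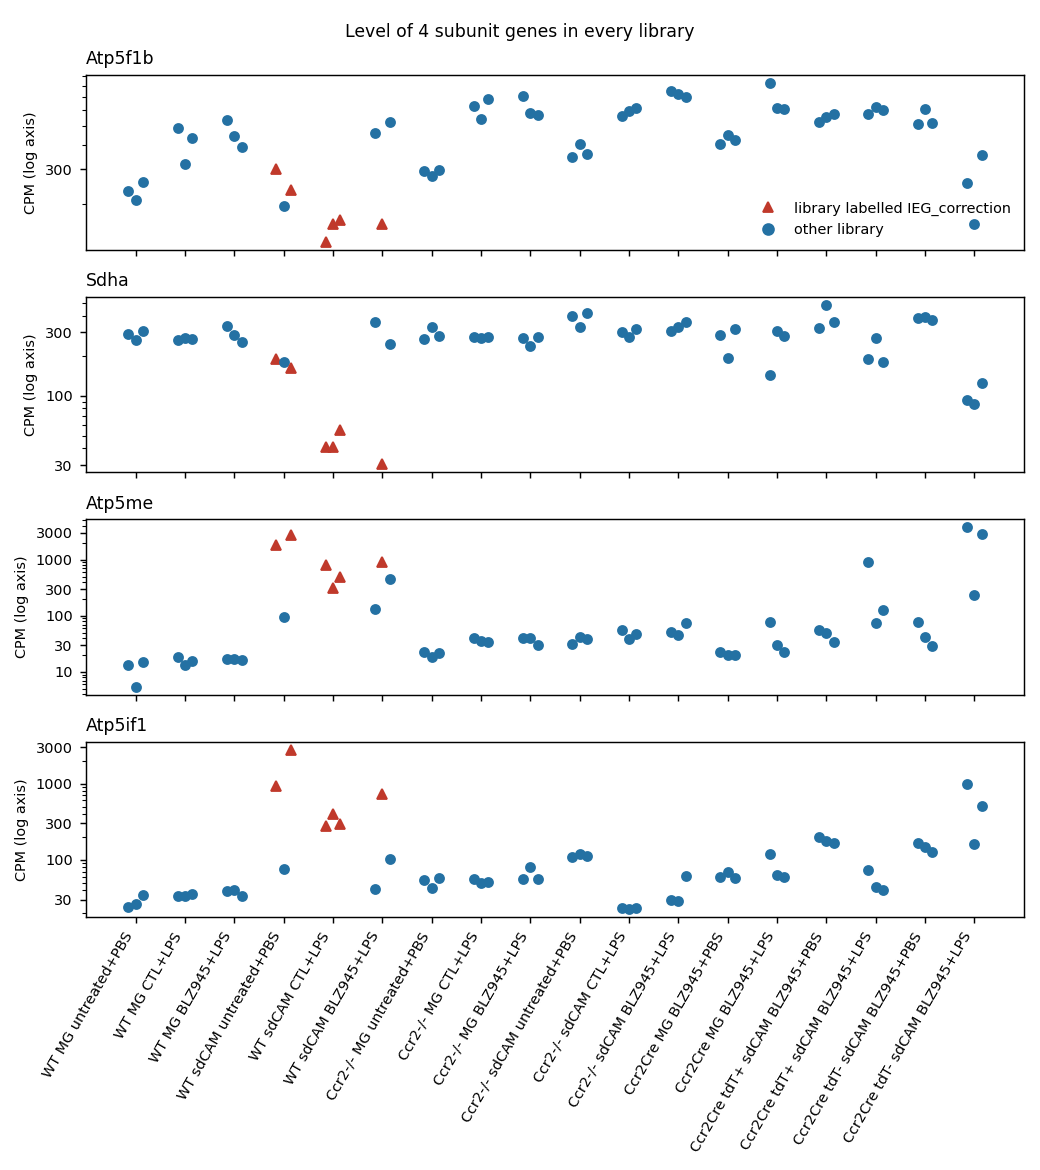
CPM (y axis, log scale) of Atp5f1b, Sdha, Atp5me and Atp5if1 in every library of the 18 groups (x axis); triangles are libraries labelled IEG_correction. Atp5if1 drops from 107.95 to 118.17 CPM to 22.46 to 23.61 CPM after LPS in Ccr2-/- sdCAMs and not in Ccr2-/- MG; in the WT sdCAM CTL+LPS and the tdT- LPS libraries Atp5me is high and Sdha low.

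In WT sdCAMs, the LPS comparison set 3 marked libraries against 2 marked and 1 unmarked. There, 4 of 91 members were called higher and 0 lower (4.4% and 0.0%, against 3.7% and 2.62% of 10504 genes), with a median of 1.6 (all genes -0.08). Cox5a, a subunit of complex IV, was at 274.68, 503.21 and 376.76 CPM after LPS and at 26.89, 23.24 and 30.58 CPM at rest, in the marked libraries as in the unmarked one (5.31 on TMM-scaled counts, SE 1.37, adjusted p = 0.0438). Ndufs4 of complex I was at 100.65, 255.59 and 230.43 against 34.44, 26.84 and 30.58 CPM (4.09, adjusted p = 0.0391). Ndufs3 and Ndufv2, both core subunits of complex I, had 3.62 and 3.76 (adjusted p = 0.0122 and 0.0362), with overlapping CPM. Leaving out untreated mouse 9 or 14 ended all 4 calls, and leaving out any other library of these groups left 1 or 2. In the marked libraries alone, 32 members were called higher and 1 lower, against 10.4% of genes called in either direction. On library totals, 52 rather than 83 members had a fold change above 0. The scaling shifted all genes by -1.34 on the log2 scale. Between the cell types the LPS effect differed for Ndufs3 alone (1 higher and 0 lower of 91, 1.1% and 0.0%, against 0.434% and 0.891% of all genes; 3.1, adjusted p = 0.0281). With the block no member was called (0.693% of genes) and with DESeq2 12 were (6.52% of genes). Ndufs3 in MG was at 55.51, 43.02 and 51.26 CPM after LPS and 38.28, 32.73 and 33.92 CPM at rest, and in sdCAMs at 26.75, 127.79 and 76.81 against 10.82, 13.22 and 31.62 CPM.

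In reporter sdCAMs, the values after LPS depended on 2 columns. For the tdT- library of mouse 1 and the tdT+ library of mouse 7, the index number in the column name belongs, by the labels, to the other library, so each comparison is given as named and with the columns exchanged. As named, LPS raised 58 of 91 members in tdT- sdCAMs and lowered 3 (63.7% and 3.3%, against 14.7% and 12.4% of 12708 genes), with a median of 2.62. With the columns exchanged, 2 were called (Atp5me and Cox6a2, both higher, against 11.9% of genes in either direction). In tdT+ sdCAMs as named, 2 were called higher and 15 lower (2.2% and 16.5%, against 7.63% and 6.0% of genes), with a median of -0.85. With the columns exchanged, 2 were called (Atp5me and Atp5mg, both higher, against 8.63% of genes).

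In tdT- sdCAMs, Cox7c was at 1421.47, 367.37 and 1211.77 CPM after LPS and at 85.86, 68.02 and 49.88 CPM after PBS (4.6, SE 0.408, adjusted p = 3.66e-06), and Ndufs6, whose promoter is shown above, at 902.23, 282.36 and 605.26 against 56.04, 43.55 and 46.07 CPM (4.37, adjusted p = 4.09e-06). Atp5mk, a small subunit of ATP synthase, was at 614.78, 287.84 and 615.54 against 58.61, 37.26 and 30.17 CPM (4.35, adjusted p = 2.04e-06). The long members fell in plain CPM: Sdha was at 92.68, 86.62 and 123.92 against 380.63, 391.05 and 372.89 CPM (-1.12 on TMM-scaled counts, adjusted p = 0.0076), and Uqcrc1 at 63.22, 47.76 and 68.19 against 231.45, 217.96 and 218.68 CPM (-1.1, adjusted p = 0.00556). Short members had a median of 3.73 and long members of -0.39, and over the 85 members length and fold change had a rank correlation of -0.84, against -0.01 over 11686 genes. In CPM without overlap between the groups, 38 of 43 short members were higher (88.4%, against 12.7% of 12053 genes) and 10 of 14 long members lower (71.4%, against 40.2% of genes).

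In tdT+ sdCAMs, the members lowered after LPS included Ndufa13 (68.92, 52.67 and 46.45 against 155.48, 126.67 and 135.95 CPM; -1.57, adjusted p = 0.00299), Ndufa11 (-1.65, adjusted p = 0.0123), both of complex I, and Atp5if1 (74.26, 43.35 and 40.64 against 196.26, 178.56 and 166.52 CPM; -2.03, adjusted p = 0.00771). After the exchange Atp5if1 had 1.63 and was not called (adjusted p = 0.387), and Ndufa13 and Ndufa11 were also above 0. Atp5mg rose in either assignment (27.67, 16.83 and 22.14 against 0.55, 1.85 and 0.54 CPM; 4.23, adjusted p = 0.00999, and 4.67 exchanged, adjusted p = 0.0126); its sequence is largely shared with other loci, as given above. Without tdT+ mouse 7 after LPS, or PBS mouse 174 or 175, 6 members were called, 5 of them lower; without LPS mouse 1 there were 10, without PBS mouse 177 there were 11, and without LPS mouse 5, whose MG markers were high, there were 19. In tdT- sdCAMs Atp5if1 was at 980.17, 160.32 and 509.99 against 166.6, 147.91 and 127.96 CPM, with overlap only between mouse 5 and the PBS libraries. As named, edgeR called it higher there (log2 fold change 2.62). With the columns exchanged it was not called.

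Between tdT+ and tdT- sdCAMs after PBS, edgeR called 0 of 91 members, against 0.0236% of genes (1 member at an unadjusted p under 0.05; DESeq2 also called 0), and the median was 0.08. Module scores were 6.01 ± 0.16 and 5.92 ± 0.232 (SD, n = 3). After LPS as named, 63 members were called lower in tdT+ than in tdT- sdCAMs and 0 higher (69.2% and 0.0%, against 6.92% and 3.85% of genes), with a median of -3.13. Ndufa13 lay at 68.92, 52.67 and 46.45 CPM in tdT+ and at 816.71, 352.52 and 599.03 in tdT- libraries (-4.39, adjusted p = 2.27e-06). Cox6a1 lay at 130.08, 133.51 and 154.23 against 1755.15, 873.59 and 1327.28 CPM (-4.24, adjusted p = 2.27e-06). With the columns exchanged, no member and no gene at all was called (0.0%), and the values were -0.25 for Ndufa13 and -0.39 for Cox6a1. The comparison thus rested on the assignment of these columns. The exchange moves 1 library of each group, so lost calls cannot tell which assignment is right. As named, all short genes took 43.1% of counts in the tdT- LPS library of mouse 1, and 42.6% and 49.8% in the other tdT- LPS libraries. They took 7.6% in the tdT+ LPS library of mouse 7, and 7.4% and 8.0% in the other tdT+ LPS libraries.

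BLZ945 made no called difference to the module. Between BLZ945+LPS and CTL+LPS, which share their CTL+LPS libraries with the LPS comparisons above, edgeR called 0 of 89 members in WT MG (0.0763% of genes; 1 member at an unadjusted p under 0.05), 0 of 88 in Ccr2-/- MG (0.0173%; 5 members), 0 of 91 in WT sdCAMs (0.0%; 2 members) and 0 of 90 in Ccr2-/- sdCAMs (0.0%; 19 members). DESeq2 also called 0 in each. Medians were 0.13, 0.18, -0.98 and 0.34. In Ccr2-/- sdCAMs 87 of 90 members had a fold change above 0, and the module score was 5.97 to 6.49 after BLZ945+LPS and 5.85 to 5.89 after CTL+LPS. In WT sdCAMs 1 of 3 BLZ945 libraries but all CTL libraries were marked. Without that library (mouse 12) 51 members were called lower, against 6.97% of genes called in either direction, in a fit where every BLZ945 library was unmarked and every CTL library marked. With the mark as a covariate, or in marked libraries alone with 1 BLZ945 library, edgeR called no member.

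Of the tissue-restricted forms, Cox6a2 reached 5 CPM in 29 of 54 libraries, Cox6b2 in 12 and Cox7a1 in 5. Cox7a1, the muscle form of Cox7a2, was listed at 0 in all 3 untreated WT MG libraries and at or under 2.87 CPM in reporter sdCAMs after PBS, and reached 5 CPM only in marked WT sdCAM and tdT- LPS libraries (highest 32.47 CPM). Cox6a2, the muscle form of Cox6a1, was at 1.68, 1.6 and 2.07 CPM in untreated Ccr2-/- sdCAMs. In Ccr2-/- MG it was at 3.03, 1.76 and 3.13 CPM at rest, at 6.27, 3.93 and 8.19 CPM after CTL+LPS (1.15, adjusted p = 0.0574) and at 7.04, 8.09 and 8.54 CPM after BLZ945+LPS. In WT sdCAMs it ranged from 0.52 to 120.92 CPM. Cox6a2 rose in tdT- sdCAMs from 0.2, 1.73 and 0.54 to 42.35, 45.94 and 80.64 CPM after LPS (6.83, adjusted p = 0.000787; 6.47 exchanged, adjusted p = 0.0249). Cox6b2, known from testis, was at 4.14, 6.03 and 3.28 CPM in untreated Ccr2-/- sdCAMs and at 0.32, 0.09 and 0.96 CPM in MG (3.3, adjusted p = 0.0422). Cox4i2 and Ndufa4l2, forms associated with low oxygen, stayed below 5 CPM in every library, at 2.34 and 1.22 CPM at most.

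The genes around the module were counted from lists. The shares of all genes called higher after LPS were 16.7% in WT MG, 19.4% in Ccr2-/- MG and 15.8% in Ccr2-/- sdCAMs. Those called lower were 14.2%, 15.5% and 13.1%. A list with shares near these is not set apart from genes in general. Cyc1 and Cycs, the cytochromes of complex III and between complexes III and IV that the symbol rule misses, both rose with LPS in WT MG (0.56 and 0.86, adjusted p = 0.0299 and 0.0174), in Ccr2-/- MG (0.87 and 1.04, adjusted p = 0.000775 and 0.00156) and in Ccr2-/- sdCAMs (1.19 and 1.62, adjusted p = 0.000121 and 0.000246). Of other assembly factors, 4, 8 and 6 of 33 were higher and 2, 1 and 2 lower in these comparisons; of 13 genes of the tricarboxylic acid cycle, 2, 5 and 4 were higher and 1, 0 and 1 lower, among them Idh3a, a subunit of isocitrate dehydrogenase, named for its size after its values were seen (1.54, 1.37 and 1.21). Of 10 tested regulators of mitochondrial genes 3, 2 and 1 were higher and 0, 1 and 0 lower, with Ppargc1b, a coactivator of ERR and NRF1, at 2.28, 2.04 and 1.82 (adjusted p = 0.00303, 0.00167 and 0.00444). Mitochondrial ribosomal protein genes were higher in 15, 39 and 15 of 78 and lower in 1, 0 and 1. Cytosolic ribosomal protein genes, which are also short, were higher in 63 of 77, 68 of 76 and 12 of 76 and lower in 0, 0 and 3. In tdT- sdCAMs after LPS as named, 70 of 77 cytosolic and 24 of 78 mitochondrial ribosomal protein genes were higher. Of 13 tricarboxylic acid cycle genes 4 were lower and 0 higher. Of all genes, 14.7% were called higher and 12.4% lower there.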

How the data were processed

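RNA was sequenced from sorted MG and sdCAMs with a full-length, PCR-amplified library kit and 50-cycle single reads; whether counting used strand is not given in the sources used here. Raw counts per gene, deposited by the authors in 3 tables, had been made with STAR 2.7.11a and featureCounts 2.0.8 according to the submitters' processing notes; the study itself applied a batch correction to WT and Ccr2-/- data and left respiratory chain genes out of its gene lists, which was not done here. Groups were taken from the labels. Library values are CPM, counts relative to the library total. Fold changes come from edgeR 4.0.16 (R 4.3.3; quasi-likelihood test, filterByExpr, TMM scaling, Benjamini-Hochberg adjustment over all genes tested), fitted over the 9 libraries of a cell type and genotype, 12 or 6 reporter libraries, or 18 libraries of both cell types, and can differ from ratios of library values where TMM factors were low (0.344 to 0.986 in marked libraries). The call was an adjusted p under 0.05. DESeq2 1.42.0, other scalings and filters, a mouse block and the omission of each library were alternatives. The fit was also run on simulated independent counts, which lack the pattern of the marked libraries and the mouse pairing. No result here draws on that run.

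The mouse numbers in the labels pair MG and sdCAM libraries. Over 36 pairs the deviations from group means correlated at -0.06 to 0.24 (median 0.055), above 0.1 in 8. Named members were a fixed set of representatives of each complex, per comparison up to 3 called members in each direction with the smallest p, at a mean of at least 10 CPM and without overlap, and the members with the largest and smallest fold change; others were named where counts were small or to list shared calls, after their values were seen. Titles of all 12 Ccr2-/- LPS libraries name the other cell type than their other labels, which were followed. The members, lists and tests were chosen with earlier results of these data known. Some items are not reported here.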

Additional observations from a re-analysis of the deposited data

Results flagged for a closer look

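The LPS effect differed between sdCAMs and MG for 3 members by the interaction term of edgeR's quasi-likelihood fit. In WT mice this was Ndufs3 (3.1 on the log2 scale, sdCAMs minus MG), where all sdCAM libraries after LPS carried the IEG_correction remark and the call was lost with the mouse block. In Ccr2-/- mice these were Atp5if1 (-2.07), called with and without the block, and Ndufb10 (-0.9), called without it.

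The module score after LPS minus that after PBS was -0.74 in tdT+ and 2.04 in tdT- sdCAMs, in opposite directions in every library. The difference between them was not tested, and it depended on the assignment of 2 columns.

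Among the rows left out of the module as pseudogene-type symbols, counts were found for Cox5b-ps (at most 70 in a library), Ndufa12-ps (at most 39) and Atp5c1-ps (at most 6). Groups held 3 libraries, so no library was tested as an outlier within its group.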

How the results depend on the processing

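Counts of called members moved by over 1.5 times in these cases. Where no share of all genes is given beside a count, it is not a result about the module. With a log2 fold change over 1 also required, they were 0 for LPS in WT MG, 5 in Ccr2-/- MG, 5 in Ccr2-/- sdCAMs and 1 by cell type in Ccr2-/-, and 5 for sdCAMs against MG in Ccr2-/-. With DESeq2 they were 1 for LPS in reporter MG (7.86% of all genes called) and 12 by cell type in WT (6.52%). They were 4 for sdCAMs against MG in reporter mice (16.8%). For LPS in WT sdCAMs DESeq2 called 14 members and in tdT+ sdCAMs 28, without a share of all genes given here. For LPS in WT sdCAMs they were 15 under the study's low-count rule, 19 with the mark as covariate and 33 in marked libraries alone (10.4% of all genes called). With 2 columns exchanged they were 2 for LPS in tdT+, 2 in tdT- sdCAMs and 0 between them, also 0 with the mouse block; there Atp5if1 (1.63), Cox6b2 (1.87), Ndufa11 (2.98) and Ndufa13 (1.76) turned positive in tdT+ sdCAMs, and Cox6b2 between tdT+ and tdT- (0.79, with the mouse block 0.32). With the mouse as a replicate block they were 0 for LPS by cell type in WT, 1 in Ccr2-/-, and 4 (reporter) and 27 (WT) for sdCAMs against MG; the WT count was 11 in unmarked libraries alone. The causes were not tested. On library totals the module score changed by 0.08 (main 0.22) with LPS in Ccr2-/- sdCAMs, 1.01 (2.31) in WT sdCAMs, -0.5 (-0.74) in tdT+, 1.24 (2.04) in tdT- sdCAMs, by cell type 0.65 (2.05) in WT and -0.3 (-0.08) in Ccr2-/-, and -1.69 (-2.69) between tdT+ and tdT- after LPS. With each library left out, counts ranged for LPS from 4 to 22 in WT MG (4 without untreated mouse 15, 6 without 14, 7 without CTL+LPS mouse 1 or 6, 22 without mouse 4), 13 to 30 in Ccr2-/- MG (13 without V1m, 15 without V4f, 17 without 3m, 20 without 1m or 5f), 0 to 0 in reporter MG, 16 to 19 in Ccr2-/- sdCAMs, 0 to 2 in WT sdCAMs, 6 to 19 in tdT+, 50 to 61 in tdT- sdCAMs, and by cell type 0 to 3 in WT and 1 to 3 in Ccr2-/-. For sdCAMs against MG they ranged from 24 to 35 in Ccr2-/- (24 without MG and 25 without sdCAMs of 3m), 0 to 2 in reporter mice (0 without tdT+ or tdT- mouse 174 or MG mouse 177, 1 without tdT- or MG mouse 175) and 13 to 51 in WT (13 without MG mouse 14 or 15, 19 without MG and 17 without sdCAMs of mouse 9), for BLZ945 from 0 to 51 in WT sdCAMs and 0 to 0 in the others, and for tdT+ against tdT- from 0 to 0 after PBS and 52 to 61 after LPS. Module scores then ranged for LPS from 0.19 to 0.33 in WT MG, 0.26 to 0.36 in Ccr2-/- MG, -0.09 to 0.5 in reporter MG, 0.19 to 0.27 in Ccr2-/- sdCAMs, 1.46 to 2.95 in WT sdCAMs, -0.82 to -0.62 in tdT+, 1.94 to 2.17 in tdT- sdCAMs, 1.2 to 2.69 (WT) and -0.14 to -0.03 (Ccr2-/-) by cell type, for sdCAMs against MG 0.4 to 0.49 (Ccr2-/-), 0.46 to 0.69 (reporter) and 1.3 to 2.8 (WT), for BLZ945 0.05 to 0.19 (WT MG), -3.4 to -1.33 (WT sdCAMs), 0.12 to 0.29 (Ccr2-/- MG) and 0.2 to 0.46 (Ccr2-/- sdCAMs), and for tdT+ against tdT- -0.01 to 0.22 after PBS and -2.82 to -2.57 after LPS. Among named members, 96 values lost the call without 1 library, 2 gained it and 580 kept their side.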
